A study of Mus musculus with 4 samples.

Results

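Glutathione is the tripeptide that cells use as their main soluble thiol antioxidant, and 10 genes of its synthesis, recycling and use were examined: Gclc, Gclm, Gss, Gsr, Slc7a11, Slc3a2, Gpx1, Gpx3, Gpx4 and Glrx. They were found by symbol among the 24421 gene symbols of the expression matrices, and all 10 were among the 14106 genes abundant enough to be tested. The genes had been selected on the comparison described here, because Gclm, Gsr and Slc7a11 were far lower in the weight-cycled group. Their differences between the groups are therefore given as a description, with no p-value, and where the calls of the fit over all genes are counted for them, the count supports nothing.

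Poly(A) RNA had been sequenced from the epididymal fat pad, a visceral adipose depot, of wild-type male C57BL/6J mice made obese by a high-fat diet (HFD). The weight-cycling group, WC1, began HFD at 8 weeks of age, stayed on it for 8 weeks, lost weight on a standard diet (SD) for 2 weeks and went back to HFD for 6 weeks. The control group, Ctrl, began HFD at 10 weeks of age and had no break in 14 weeks. HFD thus added up to 14 weeks in each group, and the mice were 24 weeks old at the end. Each group had 2 libraries, here called Ctrl-1, Ctrl-2, WC1-1 and WC1-2, and the labels do not say whether a library is 1 mouse or a pool. The p-values below thus weigh a group difference against the spread between libraries, estimated with the help of all tested genes. That spread need not be the spread between mice.

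Glutathione is made in 2 steps. Glutamate-cysteine ligase, a dimer of the catalytic subunit Gclc and the modifier subunit Gclm, joins glutamate to cysteine and sets the pace of the pathway, and glutathione synthetase, Gss, adds glycine. Cysteine is the scarce substrate, and much of it enters cells as cystine through the exchanger formed by Slc7a11 and the heavy chain Slc3a2. Glutathione peroxidases spend glutathione to reduce peroxides, glutaredoxin (Glrx) uses it to remove glutathione from protein thiols, and glutathione reductase, Gsr, returns the oxidised form to the reduced one with NADPH. The transcription factor NRF2, encoded by Nfe2l2 and restrained by KEAP1, is known to act on several of these genes through antioxidant response elements, and ATF4 is known to act on Slc7a11 through C/EBP-ATF elements. In obese adipose tissue the pathway is active in adipocytes as well as in the macrophages that gather there.

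The libraries held between 61465029 and 90965297 reads. Cell type markers differed between the groups and, for some types, between the WC1 libraries. A gene is called where limma's adjusted p over all genes was under 0.05. Of all tested genes 7.71% were called lower in WC1 and 10.2% higher, and the marker counts stand beside these shares. The summed level of 18 macrophage markers was between 24203 and 26898 CPM (reads scaled to library size by the authors) in Ctrl, 16916 CPM in WC1-1 and 10770 CPM in WC1-2, with 8 of the 18 called lower in WC1 and none at 0. For 8 mast cell markers it was between 568 and 633 CPM in Ctrl and between 69.1 and 86.1 CPM in WC1, with 7 called lower and none at 0. For 14 adipocyte markers it was between 17391 and 18629 CPM in Ctrl and between 25692 and 30739 CPM in WC1, with 10 called higher. For 7 endothelial markers it was between 430 and 475 CPM in Ctrl and between 891 and 1124 CPM in WC1, with 5 called higher. Of 8 fibroblast and progenitor markers 3 were called lower, while 3 had a log2 fold change above 0. Both WC1 sums (8474 and 6532 CPM) lay below the Ctrl sums, the WC1 mean being 80.4% of the Ctrl mean. No mesothelial marker of 5 and no lymphocyte marker of 9 was called, nor was any of the 6 epididymis markers tested, 5 of which, Gpx5, Lcn5, Lcn8, Crisp1 and Defb1, were at 0 in every library while Adam7 reached 3.02 CPM in WC1-1. Of 3 tested neutrophil markers 1 was called higher and the other 2 had log2 fold changes below 0 (Ngp was at 0 in every library). Of 5 tested erythroid genes 1 was called higher.

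Of the 10 glutathione genes, 7 were called lower in WC1 (Gclc, Gclm, Gss, Gsr, Slc7a11, Gpx3 and Glrx) and 0 were called higher, by limma with a Benjamini-Hochberg adjusted p under 0.05 over all genes. Over all 14106 tested genes the same rule called 7.71% lower and 10.2% higher. Since this contrast chose the members, nothing is read from their count. Without a Ctrl library the count of members called lower dropped to 0 (without Ctrl-1) or 1 (without Ctrl-2, Gclm), and without a WC1 library it was 7 or 8. Both WC1 libraries lay below both Ctrl libraries for 9 members and above them for Gpx4. In all tested genes 36.6% had both WC1 libraries below and 32.7% had both above. The median log2 fold change was -0.65 over the 10 members and -0.02 over all tested genes. In whole tissue, fewer cells of a type that expresses a gene and less of its RNA per cell cannot be told apart.

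**Figure D1:**
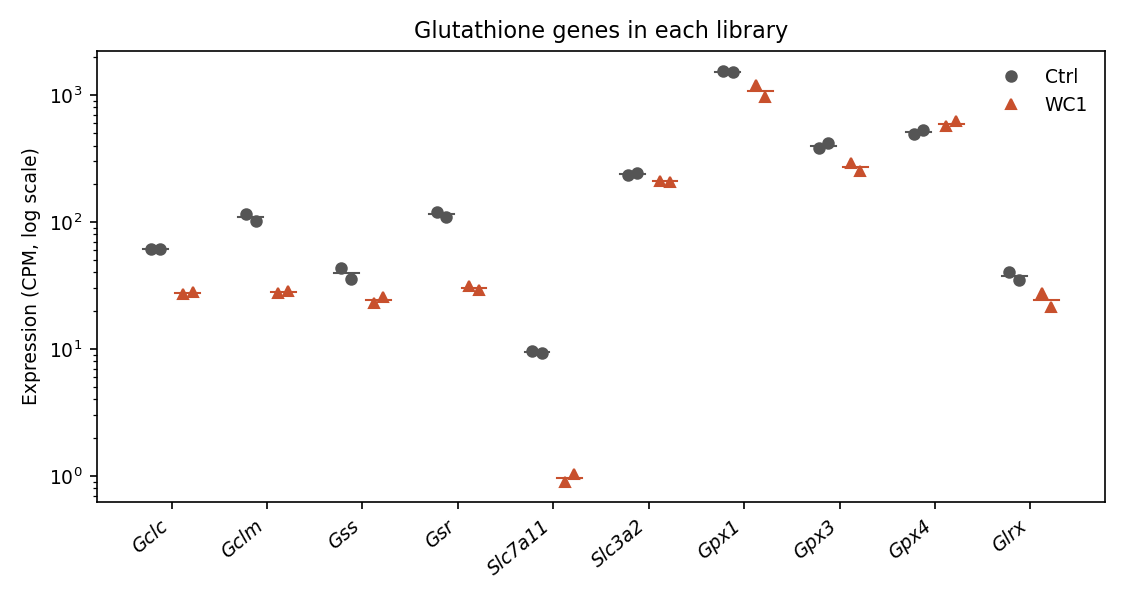
Expression of the 10 glutathione genes in each library, in CPM on a log axis, with grey circles for the Ctrl libraries, orange triangles for the WC1 libraries and a short line at each group mean. The groups are far apart for Slc7a11 (9.27 and 9.58 against 0.901 and 1.03 CPM) and close for Slc3a2 (233 and 244 against 207 and 210 CPM), and Gpx4 is the gene whose WC1 points lie above its Ctrl points.

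The ligase subunits were both lower in WC1, and not to the same extent. Gclm stood at 116 and 102 CPM in Ctrl-1 and Ctrl-2 and at 27.4 and 28.3 CPM in WC1-1 and WC1-2. The WC1 mean was 25.6% of the Ctrl mean, a log2 fold change of -1.93 ± 0.08 (standard error, SE, n = 2 libraries per group, on the log2(CPM + 1) scale as for all fold changes below). The catalytic subunit Gclc read 61.6 and 61.3 CPM in Ctrl and 27.1 and 28.3 CPM in WC1, so that its WC1 mean was 45.0% of the Ctrl mean (log2 fold change -1.12 ± 0.07). In each of these genes the libraries of a group lay close together and the groups were well apart. Gclm lies on chromosome 3 (mm10, 122245557-122270732, plus strand) and Gclc on chromosome 9 (77754535-77794485, plus strand).

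Levels of the subunits can be compared with each other in TPM, a unit that corrects for transcript length. On that scale there were 3.10 and 2.76 Gclm transcripts for each Gclc transcript in the Ctrl libraries and 1.68 and 1.66 in the WC1 libraries. The modifier subunit transcript was thus the more abundant in all 4 libraries, by a smaller margin in WC1.

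The 250 bases before the RefSeq start site of Gclm are shown because Gclm was the ligase subunit that differed most and because they hold a match to the core of the antioxidant response element, TGACNNNGC, searched on both strands. The stretch is chr3:122245307-122245556, plus strand, GRCm38.p6 (the assembly also called mm10), and is written 5′ to 3′ with the match, on the antisense strand at 134 to 126 bases before the start, in capitals.
Gclm: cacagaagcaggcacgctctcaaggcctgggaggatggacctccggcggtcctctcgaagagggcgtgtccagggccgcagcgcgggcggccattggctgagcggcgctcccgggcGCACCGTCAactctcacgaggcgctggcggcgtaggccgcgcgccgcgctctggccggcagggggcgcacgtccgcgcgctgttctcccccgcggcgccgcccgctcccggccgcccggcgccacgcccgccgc
The stretch is 78.4% G and C. Of 32851 RefSeq promoter windows of the same build, each running from 250 bases before to 50 bases after a start site, 12.4% hold these letters, so the match is a description and not a site. RefSeq windows were found for 8 of the 10 members, all but Gclc and Gsr, and in the other 7 these letters were not found.

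Gss, which completes the tripeptide, read 43.7 and 35.5 CPM in Ctrl and 23.1 and 25.5 CPM in WC1, and its WC1 mean was 61.3% of the Ctrl mean (log2 fold change -0.68 ± 0.12). Its Ctrl libraries differed by more than its WC1 libraries did, and the groups did not overlap. Gss (chromosome 2, 155563181-155592810, minus strand) overlaps Acss2 on the opposite strand, with 395 of its 5915 exonic bases shared, and no source used here says whether counting took the strand into account. Acss2, an enzyme that makes acetyl-CoA from acetate, ran the other way, at 65.0 and 70.6 CPM in Ctrl and 130 and 146 CPM in WC1.

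The exchanger that imports cystine showed the widest split between its chains. Slc7a11, the light chain that carries cystine, was at 9.58 and 9.27 CPM in Ctrl, from 655 and 807 reads, and at 0.901 and 1.03 CPM in WC1, from 55 and 65 reads. The WC1 mean was 10.3% of the Ctrl mean, with log2 fold change -2.41 ± 0.11. The added 1 in log2(CPM + 1) weighs on a gene of this level: edgeR on the recovered reads put the log2 fold change at -3.26. Slc3a2, the heavy chain that anchors this and other amino acid transporters in the membrane, read 233 and 244 CPM in Ctrl and 210 and 207 CPM in WC1, or 87.5% of the Ctrl mean (log2 fold change -0.19 ± 0.07). In TPM, Slc3a2 exceeded Slc7a11 by 86.7 and 93.8 times in Ctrl and by 831 and 723 times in WC1.

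The sequence before the start site of Slc7a11 is shown because it held the other motif searched, the C/EBP-ATF element TTGCATCA, in 2 copies, and Slc7a11 was the member with the largest difference. The stretch is chr3:50443614-50443863, minus strand, GRCm38.p6, written 5′ to 3′ along the gene, with the copies in capitals: an antisense copy at 66 to 59 bases before the start and a sense copy at 47 to 40 bases before it.
Slc7a11: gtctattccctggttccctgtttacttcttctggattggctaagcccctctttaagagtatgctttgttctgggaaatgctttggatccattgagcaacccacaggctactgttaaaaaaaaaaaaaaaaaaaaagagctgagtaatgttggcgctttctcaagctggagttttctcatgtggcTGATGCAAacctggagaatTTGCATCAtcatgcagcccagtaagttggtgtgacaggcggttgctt
These letters were found in 0.895% of the RefSeq windows and in no other member that had a window, and in no member did a match to one motif overlap a match to the other. ATF4 itself is described among the regulators below.

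Slc3a2 also pairs with other light chains, which move leucine, arginine, serine and other amino acids. Of 5 such genes 1 rose, 1 fell and 3 did not pass the test (all genes: 10.2% higher, 7.71% lower), with a median log2 fold change of 0.01 against -0.02 over all genes. Slc7a10, a small neutral amino acid carrier found in adipocytes, rose from 115 and 139 CPM in Ctrl to 191 and 233 CPM in WC1 (log2 fold change 0.73 ± 0.14, limma adjusted p = 0.0328). Slc7a7, a cationic amino acid exchanger, fell from 26.2 and 24.4 CPM to 19.6 and 19.4 CPM (log2 fold change -0.36 ± 0.08, limma adjusted p = 0.045), a call lost under 5 of the 13 alternative settings. The leucine carriers Slc7a5 (log2 fold change 0.09 ± 0.10) and Slc7a8 (-0.04 ± 0.09) and the arginine-glutamine exchanger Slc7a6 (0.01 ± 0.08) did not pass. The light chain of the cystine exchanger lay far below these other light chains. Its sharp fall was among the reasons that the members were selected, so this is only a description.

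Glutathione reductase was lower by about as much as the modifier subunit. Gsr read 121 and 109 CPM in Ctrl and 31.3 and 29.2 CPM in WC1, and its WC1 mean was 26.3% of the Ctrl mean (log2 fold change -1.89 ± 0.08). It lies on chromosome 8 (33652523-33698163, plus strand). In TPM there were 2.03 and 2.26 Gsr transcripts for each Gss transcript in Ctrl and 0.995 and 0.841 in WC1. The reductase transcript was thus the more abundant of this pair in both Ctrl libraries and the less abundant in both WC1 libraries.

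Among the enzymes that spend glutathione, differences were smaller and ran both ways. Gpx1, the cytosolic and mitochondrial peroxidase that reduces hydrogen peroxide, read 1538 and 1506 CPM in Ctrl and 1205 and 957 CPM in WC1, or 71.0% of the Ctrl mean (log2 fold change -0.50 ± 0.16). The secreted plasma peroxidase Gpx3 read 380 and 418 CPM in Ctrl and 291 and 254 CPM in WC1, or 68.3% (log2 fold change -0.55 ± 0.10). In both genes WC1-2 was the lowest library. Gpx4, which reduces lipid hydroperoxides inside membranes and guards cells against ferroptosis, read 491 and 532 CPM in Ctrl and 567 and 619 CPM in WC1, or 116% (log2 fold change 0.21 ± 0.10). It was the one member with higher values in WC1, and the gap between the nearest Ctrl and WC1 libraries (0.09 on the log2 scale) was smaller than the difference between the libraries within either group (0.11 in Ctrl and 0.13 in WC1). Glrx read 40.6 and 35.1 CPM in Ctrl and 27.3 and 21.3 CPM in WC1, or 64.3% (log2 fold change -0.62 ± 0.14).

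The makeup of the peroxidase transcripts differed with these values. The 8 glutathione peroxidase genes, Gpx1 to Gpx8, summed to 4375 and 4485 TPM in Ctrl and 4138 and 3812 TPM in WC1. Gpx1 took 64.2% and 61.9% of that sum in Ctrl and 57.9% and 51.6% in WC1, and Gpx4 took 22.4% and 23.9% in Ctrl and 29.8% and 36.4% in WC1. Gpx3 took between 9.46% and 11.9% in the 4 libraries. Gpx7 and Gpx8, which work on protein folding in the endoplasmic reticulum, together with Gpx2, Gpx5 and Gpx6 made up the rest, and the last 3 were listed at 0 in every library, where 3 reads would be between 0.0345 and 0.0492 CPM.

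In order of level, the peroxidases led in both groups. The Ctrl means ran from Gpx1 (2792 TPM) through Gpx4 (1024 TPM), Gpx3 (505 TPM), Slc3a2 (177 TPM), Gclm (101 TPM), Gsr (82.6 TPM), Glrx (54.7 TPM), Gss (38.7 TPM) and Gclc (34.5 TPM) to Slc7a11 (1.96 TPM). No neighbours in that order had overlapping libraries, although with 2 libraries the ranges of Gss (34.9 and 42.5 TPM) and Gclc (34.4 and 34.5 TPM) came close. In WC1 the first 4 places were held by the same genes, at 2182, 1311, 380 and 170 TPM. Below them came Glrx (38.8 TPM), Gclm (28.5 TPM), Gss (26.3 TPM), Gsr (24.0 TPM), Gclc (17.1 TPM) and Slc7a11 (0.220 TPM). Gclm and Gss could not be separated there, since their libraries overlapped.

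**Figure D2:**
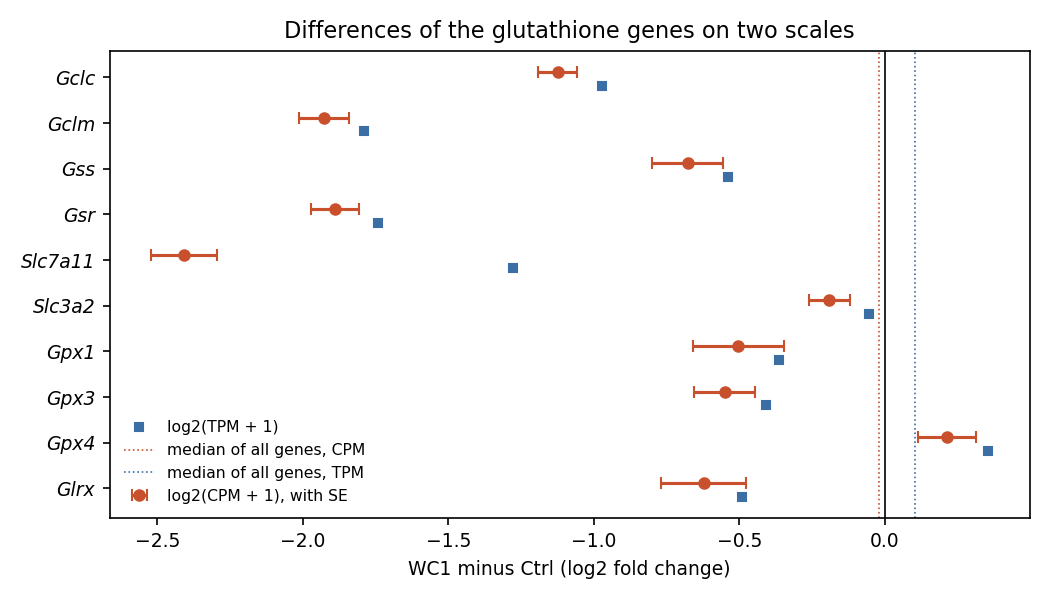
Log2 fold change, WC1 minus Ctrl, of each glutathione gene on the CPM scale (orange circles, bars are the SE) and on the TPM scale (blue squares, no error drawn), with dotted lines at the median of all tested genes on each scale. Slc7a11, Gclm and Gsr lie farthest to the left on the CPM scale at -2.41, -1.93 and -1.89, Gpx4 is the one gene to the right of 0, and every square sits to the right of its circle.

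The scale moved most genes in the same direction. The log2 fold change was higher in TPM than in CPM for 94.9% of the tested genes. The median log2 fold change over all tested genes was -0.02 in CPM and 0.10 in TPM, a shift of 0.12, and higher genes made up 57.0% of all calls in CPM and 77.9% in TPM. Relative to the median of each scale, Gclm lay at -1.91 in CPM and -1.89 in TPM and Gsr at -1.87 and -1.84. Slc3a2 lay at -0.17 and -0.16, and Gpx4 at 0.23 and 0.25. Slc7a11 is the exception, at -2.39 and -1.38, since 1 was added to values of about 2 TPM and less. Every member kept the sign of its fold change on both scales and under each of the 13 alternative settings listed with the methods. For several of those settings this was fixed beforehand. The other filters and the replicate block leave a fold change as it is. Another pseudocount or a library left out cannot turn its sign, since the groups did not overlap for any member.

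Libraries of the same group were also compared gene by gene. WC1-2 held 0.932 times the Gsr level of WC1-1, 1.04 times its Gclc, 1.03 times its Gclm and 1.15 times its Slc7a11. The macrophage marker sum of WC1-2 was 0.637 times that of WC1-1, and 17 of the 18 macrophage markers were lower in WC1-2. Gpx1 (0.794 times), Glrx (0.780 times) and Gpx3 (0.874 times) were lower in WC1-2 as well. Gpx4 (1.09 times) was higher there, as was the adipocyte marker sum (1.20 times). The mast cell marker sum of WC1-2 was 0.803 times that of WC1-1 and the fibroblast and progenitor sum 0.771 times. WC1-2 also stood apart in its lymphocyte markers, whose sum was 3.09 times that of WC1-1 (29.3 against 9.49 CPM), and its mesothelial markers, at 2.64 times (149 against 56.5 CPM).

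**Figure D3:**
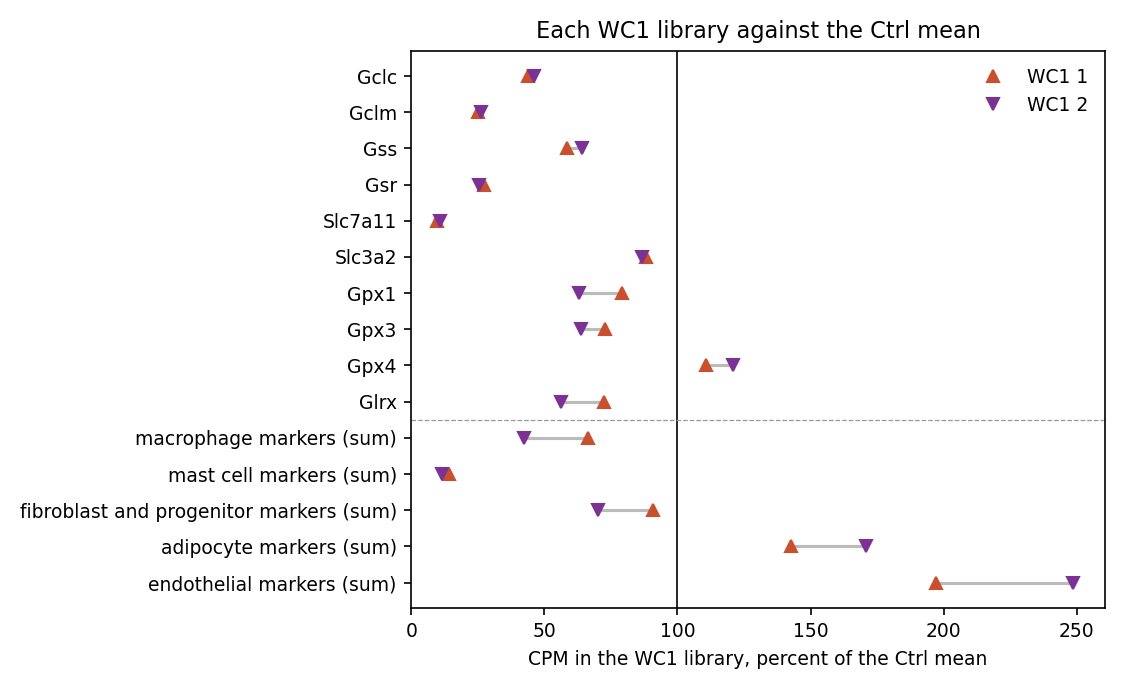
CPM in each WC1 library as a percentage of the Ctrl mean (the line at 100), for the glutathione genes above the dashed line and for summed cell type markers below it; upward triangles are WC1-1 and downward triangles WC1-2. Gclm (25.2% and 26.0%), Gsr (27.3% and 25.4%) and Slc7a11 (9.56% and 11.0%) hardly differ between the WC1 libraries. The macrophage marker sum stands at 66.2% in WC1-1 and 42.2% in WC1-2, and the mast cell marker sum at 14.3% and 11.5%. Gpx1 (79.1% and 62.9%), Gpx3 (72.9% and 63.7%) and Glrx (72.2% and 56.4%) are also lower in WC1-2. The part of any cell type was not tested.

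The members were also set against the macrophage marker sum of the same library. Per 10000 CPM of macrophage markers, Gclm read 43.0 and 42.3 in Ctrl and 16.2 and 26.3 in WC1, Gsr 44.8 and 45.1 against 18.5 and 27.1, and Slc7a11 3.56 and 3.83 against 0.533 and 0.959. For these genes both WC1 libraries stayed below both Ctrl libraries. Gclc (22.9 and 25.3 against 16.0 and 26.2) and Gss (16.2 and 14.7 against 13.7 and 23.6) overlapped between the groups, as did Gpx3. Slc3a2, Gpx1, Gpx4 and Glrx were higher in both WC1 libraries on this measure. The mast cell marker sum was at 14.3% and 11.5% of its Ctrl mean in WC1-1 and WC1-2, where Slc7a11 was at 9.56% and 11.0%. The part of the macrophage, mast cell or other marker genes in the members' differences was not tested.

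The genes most like the sharply lower members over the 4 libraries were found by the distance between log2(CPM + 1) values. Each gene was centred on its own mean, and 11107 genes outside the 10 members with a mean of at least 5 CPM were compared. With 2 libraries per group this distance is set largely by the difference between the groups, on which the members were chosen. The genes found therefore have fold changes near those of the members, and the likeness is only a description. For Gclm and for Gsr the nearest genes outside the members were the same 3: Nqo1 (distances 0.157 and 0.134), Arfip1 (0.158 and 0.150) and Pdlim4 (0.193 and 0.160). Nqo1, a quinone reductase, was at 16.3 and 14.2 CPM in Ctrl and 3.75 and 3.72 CPM in WC1, and Arfip1, which encodes arfaptin-1 of the Golgi, at 57.9 and 59.7 CPM in Ctrl and 15.1 CPM in each WC1 library. Pdlim4, an actin-associated protein, was at 52.3 and 45.9 CPM against 14.1 and 13.8 CPM. For Slc7a11 they were Mrgprb1 (0.152), Panx1 (0.188) and Wfdc17 (0.193). Mrgprb1, a receptor of mast cells, was at 12.96 and 12.76 CPM in Ctrl and 1.70 and 1.49 CPM in WC1. The membrane channel Panx1 was at 61.9 and 54.0 CPM against 10.7 and 9.72 CPM, and Wfdc17, a gene of macrophages, at 109 and 106 CPM against 22.2 and 20.8 CPM. The likeness to Slc7a11 depends on the added 1, which weighs more on low values: without it the WC1 mean was 10.3% of the Ctrl mean for Slc7a11, 12.4% for Mrgprb1, 17.6% for Panx1 and 20.0% for Wfdc17.

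Around the members, 94 other genes of glutathione, cysteine and selenium handling and of their control were listed, of which 86 were tested. Of these 21 fell and 7 rose in WC1 (limma, adjusted p under 0.05), and 58 did not pass the test, where 7.71% of all tested genes were called lower and 10.2% higher. All these genes were listed with earlier results of these data known, so the counts are a description, and the 21 include the 4 NRF2 targets described next. Without those, 17 of 82 fell and 7 rose, with a median log2 fold change of -0.05 against -0.02 over all genes. Without Ctrl-1 or Ctrl-2 0 of the 86 passed in either direction, although 27 and 31 of them had an unadjusted limma p under 0.05, as had 18.6% and 22.1% of all tested genes in those fits.

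**Figure D4:**
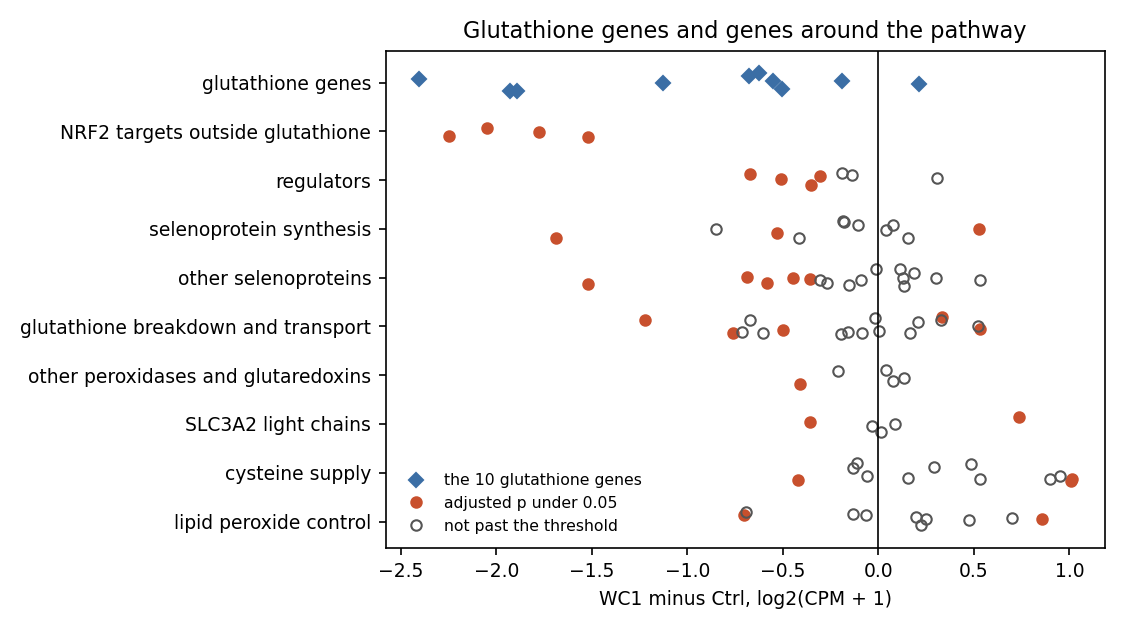
Log2 fold change, WC1 minus Ctrl, on the log2(CPM + 1) scale for the 10 glutathione genes (blue diamonds) and for each tested gene of the 9 lists around them, filled where limma's adjusted p was under 0.05 and open where it was not; height within a row is only jitter. The 4 NRF2 targets, chosen with their values known, lie at -1.52 or lower. The row labelled cysteine supply reaches 1.01 with Slc1a5 and Cdo1, of which Cdo1 consumes cysteine.

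Hmox1, Srxn1, Nqo1 and Txnrd1 are targets of NRF2 outside the glutathione pathway. These 4 genes were chosen with their values in these libraries known, so their lower levels in WC1 are a description, given with no p-value, and say nothing of other NRF2 targets. Hmox1, heme oxygenase, went from 937 and 965 CPM to 217 and 183 CPM (log2 fold change -2.25 ± 0.11). Srxn1, which repairs overoxidised peroxiredoxins, went from 392 and 347 CPM to 102 and 76.4 CPM (log2 fold change -2.05 ± 0.16). Nqo1 was lower as shown above (log2 fold change -1.78 ± 0.11), and Txnrd1, cytosolic thioredoxin reductase, which reduces thioredoxin as Gsr reduces glutathione, went from 348 and 317 CPM to 119 and 111 CPM (log2 fold change -1.52 ± 0.09).

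The regulators differed by less. Of 7 genes 4 fell and 0 rose (all genes: 7.71% lower, 10.2% higher), with a median log2 fold change of -0.31 against -0.02 over all genes. Nfe2l2, which encodes NRF2, fell from 193 and 203 CPM to 162 and 148 CPM (log2 fold change -0.35 ± 0.08, limma adjusted p = 0.0452). Mafg, a small MAF partner of NRF2, fell from 34.9 and 36.3 CPM to 22.9 and 21.0 CPM (log2 fold change -0.67 ± 0.08, limma adjusted p = 0.0165), and Bach1, a repressor that binds the same elements, fell from 96.2 and 90.4 CPM to 72.7 and 58.4 CPM (log2 fold change -0.51 ± 0.12, limma adjusted p = 0.0473). Atf4 fell from 239 and 251 CPM to 195 and 200 CPM (log2 fold change -0.31 ± 0.07, limma adjusted p = 0.0462). Keap1 (log2 fold change -0.19 ± 0.07), Mafk (-0.14 ± 0.09) and Maff (0.31 ± 0.13) did not pass. The calls of Nfe2l2, Bach1 and Atf4 lay close to the threshold, and each was lost under 5 or 6 of the 13 alternative settings.

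Among 17 tested genes of glutathione breakdown and transport, 3 fell and 2 rose (all genes: 7.71% lower, 10.2% higher), with a median log2 fold change of -0.08. Abcc1, which exports glutathione and its conjugates, fell from 165 and 147 CPM to 66.2 and 66.1 CPM (log2 fold change -1.22 ± 0.08, limma adjusted p = 0.00784). Its relatives Abcc4 (30.4 and 28.8 CPM against 16.2 and 18.0 CPM, log2 fold change -0.76 ± 0.09) and Abcc5 (159 and 153 CPM against 118 and 103 CPM, log2 fold change -0.50 ± 0.09) also fell. The 2 that rose, named after their values were seen, were Oplah, which turns 5-oxoproline back into glutamate (23.4 and 25.8 CPM against 34.1 and 38.0 CPM, log2 fold change 0.53 ± 0.10, limma adjusted p = 0.0283), and the aminopeptidase Lap3 (51.4 and 51.2 CPM against 62.8 and 67.1 CPM, log2 fold change 0.34 ± 0.07, limma adjusted p = 0.0376).

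Of 12 tested genes of cysteine supply and use other than the cystine exchanger 2 rose and 1 fell, with 10.2% of all genes called higher and 7.71% called lower. The median log2 fold change was 0.39, with 8 values above 0, and the 2 that rose do not by themselves mean more cysteine. Slc1a5, a carrier of glutamine and other neutral amino acids, rose from 471 and 535 CPM to 867 and 1189 CPM (log2 fold change 1.01 ± 0.18, limma adjusted p = 0.0282). Cdo1, cysteine dioxygenase, which consumes cysteine on the way to taurine and is abundant in adipocytes, rose from 239 and 281 CPM to 424 and 643 CPM (log2 fold change 1.01 ± 0.22, limma adjusted p = 0.0398). Ctns, the lysosomal cystine exporter, fell from 44.8 CPM in each Ctrl library to 35.5 and 31.2 CPM (log2 fold change -0.42 ± 0.09, limma adjusted p = 0.0381), a call lost under 4 of the 13 alternatives. Adipocyte markers were higher and macrophage markers lower in the same WC1 libraries, and their part in these values was not tested.

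Gpx1, Gpx3 and Gpx4 are selenoproteins, so the machinery that inserts selenocysteine and the other proteins that compete for it were read as well. Of 11 genes of selenoprotein synthesis and selenium supply 1 rose and 2 fell (median log2 fold change -0.18), where 10.2% of all genes were called higher and 7.71% lower. Lrp8, a receptor that takes up selenoprotein P, fell from 11.0 and 9.39 CPM to 1.72 and 3.43 CPM (log2 fold change -1.69 ± 0.25, limma adjusted p = 0.0223). Scly, which frees selenium from selenocysteine, fell from 51.4 and 48.4 CPM to 38.3 and 30.5 CPM (log2 fold change -0.53 ± 0.12), while Sepsecs, which makes selenocysteine on its tRNA, rose from 5.88 and 5.62 CPM to 9.23 and 8.23 CPM (log2 fold change 0.53 ± 0.11). Of 15 other selenoprotein genes tested, leaving out Txnrd1, which was chosen with its values known, 4 fell and 0 rose (median log2 fold change -0.09), where 7.71% of all genes were called lower. Selk (Selenok), a selenoprotein of the endoplasmic reticulum, fell from 110 and 112 CPM to 84.9 and 78.1 CPM (log2 fold change -0.45 ± 0.07), and Dio2, a thyroid hormone deiodinase, fell from 6.40 and 5.93 CPM to 4.11 and 3.46 CPM (log2 fold change -0.58 ± 0.12). The other 2 that fell, named after their values were seen, were Selm (log2 fold change -0.69 ± 0.15) and Sepn1 (-0.36 ± 0.08), which encode selenoproteins of the endoplasmic reticulum. The call of Dio2 was lost under 5 of the 12 alternatives that gave it a value, and those of Scly, Selm and Sepn1 under 4 of 13.

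In the last lists too the counts stand beside 7.71% of all genes called lower and 10.2% called higher. Of 5 tested peroxidases and glutaredoxins outside the 10 genes, 1 fell, Gpx8, from 36.3 and 36.5 CPM to 28.5 and 25.9 CPM (log2 fold change -0.41 ± 0.08, limma adjusted p = 0.0341), a call lost under 4 of the 13 alternatives. Glrx3, an iron-sulphur glutaredoxin and the most abundant of them, read 128 and 131 CPM in Ctrl and 129 and 136 CPM in WC1. Of 10 genes that control lipid peroxides beside Gpx4, 1 rose and 1 fell (median log2 fold change 0.21). Aifm2, which reduces coenzyme Q and limits ferroptosis without glutathione, rose from 126 and 137 CPM to 219 and 262 CPM (log2 fold change 0.86 ± 0.11, limma adjusted p = 0.0181), and Alox5, the leukotriene-forming lipoxygenase of myeloid cells, fell from 15.3 and 18.3 CPM to 9.69 and 10.1 CPM (log2 fold change -0.70 ± 0.12, limma adjusted p = 0.0254). Por, a reductase that passes electrons to cytochromes P450, did not pass (log2 fold change -0.13 ± 0.08).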

How the data were processed

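Epididymal adipose tissue RNA from 2 Ctrl and 2 WC1 libraries was analysed from 2 deposited gene matrices. In one the authors deposited a scaled CPM signal whose columns sum to between 97.6% and 105% of the total of plain CPM and whose values were whole reads in 100% of cases (tolerance 0.01 read). In the other the authors deposited TPM. The submitters' processing notes name fastp, HISAT2, StringTie and mm10. The sources used here give no versions, annotation or use of strand. Groups came from the sample titles.

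Genes that reached 0.5 CPM in 2 or more libraries were tested on log2(CPM + 1), WC1 minus Ctrl, with limma 3.58.1 in R 4.3.3 (abundance trend, two-sided, Benjamini-Hochberg over all genes, threshold 0.05), a script tested on simulated data. Alternatives were no filter, a mean of 5 CPM, pseudocounts of 0.25 and 4, TPM, median-of-ratios scaling, edgeR 4.0.16 and DESeq2 1.42.0 on recovered reads, a replicate block and each library left out.

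The 10 genes and all lists were chosen with earlier results of these data known. Named genes were the members and every tested regulator, light chain and NRF2 target. In each other list up to 3 called genes with the smallest p were named, and where fewer than 3 were called, also the most abundant. Outside the members, the 3 genes nearest to each of Gclm, Gsr and Slc7a11 were named as well. Acss2, which overlaps Gss, and Oplah, Lap3, Selm and Sepn1 were named after their values were seen. Symbols were matched to RefSeq synonyms, promoter sequences are RefSeq's and gene positions GENCODE M21's, on GRCm38. An exact permutation test of 1 gene cannot go below p = 0.333 with 3 ways to pair 4 libraries.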

Additional observations from a re-analysis of the deposited data

How the results depend on the processing

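The sign of each member's fold change was the same under all 13 alternatives, several of which could not change it, as said above. The lowest and highest log2 fold changes were -2.01 and -1.79 for Gclm, -1.96 and -1.74 for Gsr and -1.16 and -0.97 for Gclc. For Slc7a11 they were -3.26 and -1.28, and its value followed the pseudocount (-2.99 with 0.25 and -1.43 with 4 CPM). Against 1443 genes higher and 1088 lower, no filter on low values gave 788 and 532 among 18132 genes, TPM gave 583 lower (2054 higher), and DESeq2 gave 1736 lower (2125 higher). The 7 members called lower became 4 with no filter (Gclc, Gclm, Gsr and Slc7a11), 5 in TPM and 8 with DESeq2, and 0 were called higher by limma, edgeR or DESeq2. The 21 lower and 7 higher genes around the pathway became 11 and 2 with no filter, 11 lower in TPM and 12 higher with DESeq2. Leaving out 1 library gave between 2 and 2424 genes higher, between 4 and 2748 lower, between 0 and 8 members lower, and between 0 and 28 pathway genes lower and 0 and 16 higher. In each case the lowest counts came without a Ctrl library, where the lone Ctrl sample is assumed to vary like the WC1 pair, and the cause was not tested. With the replicate block, 1769 genes were higher and 1497 lower, 7 members were lower, and 11 pathway genes were higher. The numbers 1 and 2 are not said to pair libraries, and the library differences of the groups correlated across 14106 genes with r = 0.19. Of 441 values, under the alternatives, of the 34 named genes outside the members that were called, 97 lost their call, 68 of them when a library was left out, and no called gene changed sign. Genes that had not passed changed sign in 7 values: Slc7a8 (0.10), Mafk (0.0021) and Por (0.0062) in TPM, and Slc7a6 and Slc7a8 in 2 values each when a library was left out. With 2 libraries per group, the spread between libraries limits most values, and for Slc7a11 in WC1 so do its 55 and 65 reads.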
